A study of Homo sapiens with 2 samples.

Results

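The regions described here were the 648 peaks of chromosome 1 in the peak list of the IMR-32 NeuroD1 ChIP-seq library, out of 6183 peaks on 23 chromosomes (10.5%). Peaks were assigned by the position of their summit, on GRCh38, to distal 1p (from the end of the short arm to 30 Mb, 27 peaks), proximal 1p (30 Mb to the centromere, placed at 124 Mb, 240 peaks) and 1q (381 peaks), and to bins of 10 Mb. These limits were set by position, not by the values of the peaks. The study used ChIP-seq to ask whether genes lowered by NeuroD1 knockdown in MYCN-amplified neuroblastoma cells are direct targets of NeuroD1. IMR-32 is an established neuroblastoma cell line with amplified MYCN, labelled wild type, with no agent or treatment given in the labels. A single ChIP library and its input made up the series, and all values come from the peaks called in the former. For the ChIP library the labels give an antibody against NeuroD1. The supplementary methods for ChIP-seq give one against H3K27Ac, an acetylated histone found at active promoters and enhancers, and the list was used as labelled. With 1 library there was no replicate, so no test was made, and every interval below covers counting error only.

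NeuroD1 is a proneural transcription factor of the basic helix-loop-helix family. It pairs with E proteins, and the dimer binds E-boxes, short DNA motifs, near genes of neuronal differentiation. In neuroblastoma, a tumour of the sympathetic nervous system, the distal short arm of chromosome 1 is often lost, and 1p36 has long been searched for tumour suppressors. In ChIP-seq a peak is called where fragments pile up above a local background, taken from control reads around the site. That background follows how many control fragments a region yields.

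The promoter windows shown first are those that held the summits of peaks on which the description below turns. Sequences were taken from RefSeq (GRCh38.p14) and run 5′ to 3′ from 250 bases before to 50 bases after the start site. Capitals mark the E-boxes CAGATG, its complement CATCTG, and CAGCTG, searched on both strands (CAGCTG is its own complement, and none of them overlapped another). The EPS15, ADGRL2 and IARS2 windows are shown because they held the 3 highest peaks of the chromosome, and the HSPG2 window because it held the highest peak of distal 1p with a summit inside a window. TARDBP was the window of distal 1p with CATCTG, FAF1 held the first summit beyond a step in background on 1p, and NHLH1 and ZBTB18 are neural transcription factor genes whose windows held E-boxes.
EPS15, chr1:51519217-51519516, minus strand: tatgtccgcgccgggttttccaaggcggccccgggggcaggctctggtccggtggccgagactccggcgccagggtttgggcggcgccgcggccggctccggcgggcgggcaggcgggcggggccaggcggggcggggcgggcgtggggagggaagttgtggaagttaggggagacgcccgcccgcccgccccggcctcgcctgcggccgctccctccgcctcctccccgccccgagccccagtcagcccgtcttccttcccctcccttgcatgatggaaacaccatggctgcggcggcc
ADGRL2, chr1:81801192-81801491, plus strand: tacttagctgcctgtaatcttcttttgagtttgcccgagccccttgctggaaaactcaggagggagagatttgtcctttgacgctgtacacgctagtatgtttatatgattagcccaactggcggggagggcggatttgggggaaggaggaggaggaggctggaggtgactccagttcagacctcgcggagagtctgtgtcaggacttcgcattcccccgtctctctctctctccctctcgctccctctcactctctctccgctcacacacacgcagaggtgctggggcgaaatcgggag
IARS2, chr1:220093882-220094181, plus strand: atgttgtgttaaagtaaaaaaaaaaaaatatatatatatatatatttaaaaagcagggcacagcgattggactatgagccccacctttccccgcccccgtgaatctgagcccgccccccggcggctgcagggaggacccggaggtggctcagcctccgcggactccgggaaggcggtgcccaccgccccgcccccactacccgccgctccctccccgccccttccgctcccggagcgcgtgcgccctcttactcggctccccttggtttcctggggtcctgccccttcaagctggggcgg
HSPG2, chr1:21937261-21937560, minus strand: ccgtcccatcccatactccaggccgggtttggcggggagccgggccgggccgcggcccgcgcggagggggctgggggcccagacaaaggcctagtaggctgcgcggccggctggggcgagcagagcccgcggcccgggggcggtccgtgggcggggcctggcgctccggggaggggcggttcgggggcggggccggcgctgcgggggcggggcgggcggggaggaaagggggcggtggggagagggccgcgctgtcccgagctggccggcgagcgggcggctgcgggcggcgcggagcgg
TARDBP, chr1:11012404-11012703, plus strand: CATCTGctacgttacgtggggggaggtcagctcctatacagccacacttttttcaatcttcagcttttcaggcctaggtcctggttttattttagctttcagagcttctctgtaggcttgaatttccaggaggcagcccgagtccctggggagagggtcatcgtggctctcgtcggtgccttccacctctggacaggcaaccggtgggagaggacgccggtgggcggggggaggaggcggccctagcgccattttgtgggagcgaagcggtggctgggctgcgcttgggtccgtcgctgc
FAF1, chr1:50960218-50960517, minus strand: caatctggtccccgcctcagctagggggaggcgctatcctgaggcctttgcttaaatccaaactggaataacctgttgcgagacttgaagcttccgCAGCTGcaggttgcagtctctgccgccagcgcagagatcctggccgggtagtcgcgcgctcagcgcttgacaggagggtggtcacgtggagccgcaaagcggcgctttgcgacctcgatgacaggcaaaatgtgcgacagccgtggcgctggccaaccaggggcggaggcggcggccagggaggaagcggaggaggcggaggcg
NHLH1, chr1:160366821-160367120, plus strand: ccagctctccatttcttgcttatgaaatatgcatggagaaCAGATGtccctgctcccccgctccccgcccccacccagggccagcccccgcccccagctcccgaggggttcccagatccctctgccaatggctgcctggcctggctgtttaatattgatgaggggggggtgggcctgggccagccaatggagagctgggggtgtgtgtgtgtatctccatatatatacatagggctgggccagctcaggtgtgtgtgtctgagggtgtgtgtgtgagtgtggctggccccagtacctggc
ZBTB18, chr1:244051033-244051332, plus strand: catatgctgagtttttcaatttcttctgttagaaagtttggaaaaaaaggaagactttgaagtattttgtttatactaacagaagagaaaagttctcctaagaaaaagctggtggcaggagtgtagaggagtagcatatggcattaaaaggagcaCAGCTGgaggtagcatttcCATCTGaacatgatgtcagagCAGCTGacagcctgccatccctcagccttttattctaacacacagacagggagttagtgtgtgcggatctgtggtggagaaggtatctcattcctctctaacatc

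The 4 windows of EPS15, ADGRL2, IARS2 and HSPG2 held none of these E-boxes, although their peaks were among the highest of their regions. The ZBTB18 window held 3, and the summit of its peak, at position -55 from the start site, fell on the first base of the last of them. That peak had 22 reads and 5.64-fold enrichment. The highest peak at ZBTB18 had its summit outside the window. In the NHLH1 window CAGATG began at position -210 and the summit lay at -153. Of the 266 windows of chromosome 1 that held a summit, 29 had CAGATG or CATCTG (10.9%, 95% Clopper-Pearson interval 7.42 to 15.3), against 534 of all 3580 windows of the chromosome (14.9%) and 14.7% of the 34943 windows of all chromosomes with windows. CAGCTG was in 16.2% (12 to 21.2) of the windows with a summit and in 17.7% of all windows of chromosome 1. By region, CAGCTG was in 24.5% (16.2 to 34.4) of the 94 windows with a summit on proximal 1p and in 11.8% (7.26 to 17.8) of the 161 on 1q, against 16.8% and 17.3% of all windows there. Windows with a summit had a median GC content of 66.8%, above the 58.7% of all windows of chromosome 1, and all windows of distal 1p (63.7%) were richer in GC than those of proximal 1p (59.0%) and 1q (56.3%). These matches describe the letters of the windows, and no match says only that the letters were not in 300 bases.

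Peaks were sparse on distal 1p and denser on proximal 1p and on 1q, each taken as a whole. A low rate was not particular to distal 1p. On proximal 1p the rate was 8.66 per 100 protein-coding genes from 30 to 40 Mb and 7.81 from 40 to 50 Mb. On 1q it was 8.45 from 140 to 150 Mb. The rate of proximal 1p given next thus averages a sparse part and a denser part. Distal 1p held 27 peaks beside 428 protein-coding genes, or 6.31 per 100 genes (exact Poisson interval 4.16 to 9.18). Proximal 1p held 36.4 per 100 of its 660 genes (31.9 to 41.3) and 1q 39.2 per 100 of its 973 (35.3 to 43.3). The rate on 1q was 6.21 times that of distal 1p (interval of the ratio 4.2 to 9.54), and proximal 1p stood 5.76 times above distal 1p (3.86 to 8.93). Between 1q and proximal 1p the ratio was 1.08, with an interval (0.914 to 1.27) that includes equality. Chromosome 1 as a whole had 31.4 peaks per 100 genes and the rest of the genome 30.8. The low rate of distal 1p was therefore not visible in the total of the chromosome.

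Counted by gene, 423 of the 2061 protein-coding genes of chromosome 1 had a peak in the gene or within 3 kb, a share of 20.5%, beside 21.4% of the 20033 protein-coding genes of all chromosomes. On distal 1p 21 genes had one (4.91%, Clopper-Pearson 3.06 to 7.40), on proximal 1p 150 (22.7%, 19.6 to 26.1) and on 1q 252 (25.9%, 23.2 to 28.8). The shares of proximal 1p and 1q lay close to the background share, and that of distal 1p well below it. Per megabase, where the gene density of distal 1p does not enter, the regions held 0.90, 2.55 and 3.05 peaks. The ratio of 1q to distal 1p was then 3.39 (2.29 to 5.21), and that of proximal 1p to distal 1p 2.84 (1.90 to 4.39).

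In bins of 10 Mb, numbered from the end of 1p, the first 5 bins held 9, 6, 12, 11 and 10 peaks, or between 4.35 and 8.66 per 100 protein-coding genes. The sixth bin, from 50 to 60 Mb, held 69 peaks beside 72 genes, or 95.8 per 100 (74.6 to 121), the highest rate of the chromosome. The rise thus came 20 Mb beyond the limit of distal 1p, inside proximal 1p. The first 5 bins together had 48 peaks and 683 genes (7.03 per 100), and the other 20 had 600 peaks and 1378 genes (43.5 per 100). Beyond the sixth bin the rates still varied, from 8.45 (3.10 to 18.4) in bin 15, the first bin of 1q with peaks, to 78.6 in bin 7 and 77.5 in bin 22. The bin from 150 to 160 Mb had the most peaks of all bins, 71, but 282 genes and so 25.2 per 100 (19.7 to 31.8). Bin 14 held neither peak nor protein-coding gene.

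The background that the peak caller set beneath each summit is not a column of the file, but it follows from the deposited fold enrichment and −log10 p together. The fold enrichment is the pileup of ChIP fragments plus 1 over the background plus 1. The p-value is the Poisson probability, under that background, of a count above the whole part of that pileup. Solved for all peaks, 1 ChIP read weighed 0.980 in the pileup, and the lowest background, which 2027 of the 6183 peaks shared (32.8%), was 1.035 control reads per fragment window. A fragment window is the narrowest width of a peak, 146 bases. The other 4156 backgrounds lay at whole numbers (32%) or at the steps that counts in 1 kb (33.1%) and 10 kb (34.9%) around the site give. A peak at the lowest background thus had at most 70 control reads in 10 kb around it and at most 7 in 1 kb.

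On distal 1p, 24 of 27 peaks stood at the lowest background (88.9%, Clopper-Pearson 70.8 to 97.6). On proximal 1p 23 of 240 did (9.58%, 6.17 to 14), and on 1q 8 of 381 (2.10%, 0.911 to 4.10), while on the other chromosomes together the share was 35.6%. Median backgrounds were 1.04 on distal 1p, 1.77 (interval of the median 1.69 to 1.90) on proximal 1p and 1.61 (1.58 to 1.75) on 1q. The mean was 1.12 ± 0.380 (SD over 27 peaks) on distal 1p, 1.91 ± 0.787 on proximal 1p and 1.82 ± 0.638 on 1q. As ratios of means, 1q stood at 1.62 and proximal 1p at 1.70 times distal 1p, and 1q at 0.953 times proximal 1p. The lowest value is a floor, and the control reads around a peak at the floor could lie lower by an unknown amount. The mean and median of distal 1p rest mostly on that floor. Ratios to distal 1p therefore compare the backgrounds set by the caller, not the control reads themselves. The 3 peaks of distal 1p above the lowest value were those nearest to AURKAIP1 (1.31), VWA5B1 (1.17) and PAFAH2 (3.0). Copy number was not measured in these data, and its part in the backgrounds was not tested.

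Read peak by peak from the end of 1p, the background changed level inside proximal 1p. The last 17 peaks up to a summit at chr1:50346849 all stood at the lowest value, and the 215 peaks from the next summit, chr1:50960319, onward all stood above it. The 2 summits are 613 kb apart, across DMRTA2, a doublesex-related transcription factor gene, and FAF1, which encodes a FAS-associated protein. The last peak before the gap (chr1:50346798-50346960) had 11 reads at a background of 1.04 and 5.79-fold enrichment. The first beyond it (chr1:50960240-50960505) had 18 reads at 1.77 and 6.74-fold enrichment. It lay 52 bases before the start site of FAF1 and 426 bases from a start site of CDKN2C, which encodes the CDK4/6 inhibitor p18-INK4C.

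Of the 50 peaks before the gap, 46 were at the lowest background (92.0%, 80.8 to 97.8), and of the 217 peaks beyond it on 1p, 1 was (0.461%, 0.0117 to 2.54). The peak rate changed over the same gap, from 7.31 per 100 genes (5.43 to 9.64, 684 genes) to 54.0 (47.0 to 61.7, 402 genes). Median reads at the summit went from 13.5 to 18, and median fold enrichment from 6.75 to 6.43. This position was found from the values, so the contrast is a description of where they changed. The exceptions were few. Before the gap 4 peaks stood above the lowest background, 2 of them at 3.0, and beyond it 9 peaks on both arms stood at the lowest, 8 of them on 1q, among them 2 in the bin from 210 to 220 Mb and 1 in the last bin of the arm.

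A second, smaller change followed about 10 Mb further along. Where the background was not a whole number, that is, where the 1 kb or 10 kb window or the lowest value set it, the backgrounds beyond the gap were first higher and then lower. The level of 1.5 and the end of the higher stretch were chosen from these values, so that no peak of the stretch is under 1.5 by construction. It held 50 such peaks, with a median background of 1.99 and a maximum of 3.07. The last of them lay at chr1:60858688, upstream of NFIA, a nuclear factor I gene of glial and neuronal development. The next such peak, in NFIA at chr1:61271555, was at 1.31, and of the 20 from there on, 15 were under 1.5. From 60 Mb to the centromere 68 of 110 such peaks (61.8%) were under 1.5 and on 1q 148 of 258 (57.4%), with the same median of 1.46 in both. The stretch of higher background, up to chr1:60858688, held 74 peaks beside 70 genes (106 per 100), a rate that describes limits set from the data. From 60 Mb to the centromere the rate was 45 per 100 genes (38.1 to 52.9), close to that of 1q.

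Over the 23 bins with at least 5 peaks, the peak rate and the mean background had a Spearman rho of 0.739, and within the 18 of these bins with a mean background over 1.4, rho was 0.459. The rate and the median fold enrichment had a rho of −0.520 over the 23 bins. All bins come from the same library and share its depth, so these are descriptions and no p is given. Beside the other chromosomes, the sole chromosome with a lower rate than distal 1p was X, which was also the sole one with a larger share of peaks at the lowest background. Proximal 1p and 1q stood among chromosomes 2, 6, 12, 15 and 17, which were the 5 with more peaks per 100 genes than proximal 1p. On chromosome 12, 1.66% of peaks stood at the lowest background, on chromosome 6 2.55%, on chromosome 15 7.51% and on chromosome 17 11.1%, beside 2.10% on 1q and 9.58% on proximal 1p. Chromosome 2 stood apart from these with 21.2%.

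Fold enrichment differed less clearly between the 3 regions than the number of peaks did. Over the 23 bins above, its median tended to be lower where the peak rate was higher (Spearman rho −0.520). By region, the median fold enrichment was 7.71 on distal 1p (interval of the median 6.27 to 12.5), 6.44 on proximal 1p (6.27 to 6.75) and 6.78 on 1q (6.54 to 7.14). The intervals overlapped, so the medians were not told apart. Of the few peaks of distal 1p, 9 of 27 were at 10-fold or more (33.3%, 16.5 to 54.0), against 37 of 240 (15.4%, 11.1 to 20.6) and 55 of 381 (14.4%, 11.1 to 18.4). These intervals overlapped too, and some of the 9 shared a locus, at ARID1A or CASZ1. By reads the share of high peaks was not larger on distal 1p, with 9 of 27, 96 of 240 and 153 of 381 at 20 reads or more. Among peaks under 6-fold the rate on 1q was 8.11 times that of distal 1p (3.82 to 20.6), with 7, 89 and 129 peaks in the 3 regions. At 10-fold or more it was 2.69 times (1.32 to 6.19), with rates of 2.10, 5.61 and 5.65 per 100 genes. At 15-fold or more distal 1p had 5 peaks (1.17 per 100 genes), proximal 1p 6 (0.909) and 1q 15 (1.54), and the ratio of 1q to distal 1p was 1.32 (0.456 to 4.64). By fold enrichment, which divides by the background, the scarcity of peaks on distal 1p thus lay mostly among low and middle classes. At 15-fold or more it was not detectable at these counts. The 5 peaks of distal 1p in that class lay at ARID1A, CASZ1 and HSPG2 alone, so they were not all separate loci.

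Reads at the summit, which the background does not divide, gave a narrower difference at the top and not below it. Peaks with 30 reads or more numbered 5, 28 and 39, and the ratio of 1q to distal 1p was 3.43 (1.35 to 11.2). With 20 reads or more it was 7.48 (3.84 to 16.7), and with under 20 reads 5.57 (3.45 to 9.57). A given number of reads gave a different fold enrichment on each background. The peak at TARDBP had 9 reads at the lowest background and was listed at 4.83-fold with a −log10 q of 2.45. The peak nearest to PAFAH2, 44839 bases from its start and inside no protein-coding gene, had 13 reads at a background of 3.0 and was listed at 3.44-fold with a −log10 q of 1.59. Over the chromosome, peaks at the lowest background had a median of 14 reads and 7.23-fold enrichment, and peaks at a background of 2 or more had 19 reads and 5.89-fold.

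The highest of the 27 peaks of distal 1p lay at ARID1A, which encodes a subunit of the SWI/SNF chromatin remodelling complex and sits in 1p36. It was at chr1:26695462-26695836, 381 bases from the start site, with 41 reads (exact Poisson interval 29.4 to 55.6) and 20.2-fold enrichment. The 3 peaks in ARID1A or within 3 kb also included one upstream at chr1:26692861-26693362, with 34 reads and 16.9-fold, and one inside the gene with 10 reads and 5.31-fold. The 20.2-fold and 16.9-fold peaks lay inside LOC124900417, a protein-coding gene that overlaps ARID1A. A peak farther upstream, of 25 reads and 12.5-fold, also lay inside LOC124900417. Another, of 16 reads and 8.20-fold, stood 75088 bases from the start site of ARID1A. HSPG2, which encodes the basement membrane proteoglycan perlecan, followed at 19.8-fold with 40 reads, 200 bases before its start site.

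CASZ1, a zinc finger transcription factor studied as a neuroblastoma tumour suppressor, had 2 of the 5 highest. One lay beside the gene at chr1:10796588-10796896, with 39 reads and 19.3-fold, and the other inside it at chr1:10679552-10679969, with 36 reads and 17.8-fold. KCNAB2, a potassium channel beta subunit gene, had 26 reads and 13-fold at its start site. RERE, a nuclear receptor corepressor gene, and SAMD11 had 25 reads and 12.5-fold each. CAMTA1, a calmodulin-binding transcription activator gene, had 2 low peaks, at 5.79-fold with 11 reads and 5.31-fold with 10.

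Of the 17 genes of 1p36 that have been studied as tumour suppressors, 4 thus had a peak, ARID1A, CASZ1, RERE and CAMTA1 (23.5%, 6.81 to 49.9), beside 4.91% of all protein-coding genes of distal 1p. The other 13 had none. A peak anywhere in the gene or within 3 kb counted, and gene length was not adjusted for in this share. ARID1A spans 86.1 kb, beside a median of 20.1 kb for the protein-coding genes of distal 1p. CAMTA1 and RERE are longer than ARID1A. The peak inside CAMTA1 lay 298542 bases from the nearest start site, and that inside RERE 114150 bases from the nearer gene end. The remaining peaks of distal 1p lay between 3.44-fold and 8.20-fold, apart from the further peaks at ARID1A. Those within 250 bases of a start site included AURKAIP1, which encodes a mitochondrial protein that interacts with Aurora A, PGD of the pentose phosphate pathway, DDOST of the oligosaccharyltransferase, ECE1, which cleaves endothelin precursors, CLIC4, TARDBP, which encodes the RNA-binding protein TDP-43, DISP3 and TRNAU1AP.

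Proximal 1p held the highest peak of the chromosome, in the promoter of EPS15, an endocytic adaptor gene, with 148 reads (125 to 174) and 54.8-fold at a background of 1.66. The same peak also lay inside the gene OSBPL9. It lay in the stretch of higher background. ADGRL2, a latrophilin adhesion receptor gene active at synapses, came next with 70 reads (54.6 to 88.4) and 30.3-fold, 35 bases before a start site at chr1:81801022-81801570, on a background of 1.30. The peak in ATXN7L2, at 20.3-fold, had 61 reads on a background of 2.0. The peaks in TNNI3K, a cardiac kinase gene (18.3-fold, 38 reads), and INKA2 (16.4-fold, 37 reads) completed the first 5. INKA2, which encodes an inhibitor of the kinase PAK4, had 5 peaks within 3 kb of its 33.7 kb body.

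A peak upstream of NFIA, named after its values were seen, had 69 reads (53.7 to 87.3) and 11.4-fold enrichment, on a background of 5.0, the upper end of the range on the chromosome.

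USP1, which encodes a deubiquitinase of DNA repair, had a peak of 29 reads (19.4 to 41.6) on a background of 2.0 at chr1:62436405-62437042, 203 bases from its start site. Its 9.81-fold enrichment ranked 38 of 240 on proximal 1p. Another summit nearest to USP1 lay 51637 bases from its start, with 15 reads and 5.23-fold.

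On 1q the highest peak lay 118 bases before the start site of IARS2, the mitochondrial isoleucyl-tRNA synthetase gene, with 63 reads (48.4 to 80.6) and 28.2-fold at a background of 1.23. ZBTB7B, a zinc finger transcription factor gene known for the CD4 lineage choice of T cells, followed closely at 28.1-fold with 85 reads (67.9 to 105) at a background of 2.0. It had the second most reads of the leading peaks but the higher background, and the intervals of the 2 read counts overlapped. ZNF687, a zinc finger gene, had 2 of the first 5 peaks, 23.7-fold with 55 reads and 20.7-fold with 51, their summits on either side of the 5′ end of the gene. PCP4L1, related to the neuronal calmodulin regulator PCP4, had 54 reads and 23.3-fold inside the gene, 16300 bases from the nearest start.

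The highest peaks of the other bins are given by the protein-coding gene with the nearest start. On 1p these were PEF1 (11.6-fold, 28270 bases from its start and inside COL16A1), PRDX1, a peroxidase gene (10.6-fold), C1orf87 (13.4-fold, inside the gene), MTF2, a Polycomb accessory gene (11.0-fold), and SEC22B, a vesicle trafficking gene (8.55-fold). On 1q they were LOC128071544 (12.4-fold, inside BCL9), FAM20B (14-fold), IER5, an immediate early response gene (18.9-fold, 40115 bases from its start), ZBTB41 (11.4-fold), DDX59, an RNA helicase gene (19.9-fold), VASH2 (13.1-fold), GALNT2 (11.8-fold) and ZBTB18, a zinc finger repressor of cortical development (13.4-fold). Every bin with at least 1 peak thus reached 8.55-fold or more, whatever its background.

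Some genes collected several peaks. On chromosome 1, 29 protein-coding genes had 3 or more in the gene or within 3 kb (1.41%), beside 1.20% of genes on the other chromosomes. Of these, 2 were on distal 1p, 9 on proximal 1p and 18 on 1q. The 2 on distal 1p, ARID1A and LOC124900417, overlap and share peaks, so they are a single locus. GLIS1, a Krüppel-like zinc finger gene, and SSBP3, which encodes a partner of LIM-domain transcription complexes, had 6 each, the most on the chromosome. Both lie in the bin from 50 to 60 Mb. The GLIS1 peaks had 18, 31, 20, 23, 26 and 37 reads, and backgrounds from 1.99 to 4.0. Only the last of them, 151 bases before the start site, passed 10-fold (12.5-fold). In and beside SSBP3 the highest had 41 reads and 14.2-fold. On 1q, ESRRG, an orphan nuclear receptor gene, KCNN3, a calcium-activated potassium channel gene, and NAV1, a neuron navigator gene, had 5 each.

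Among transcription factors of neural and neural crest development, 9 of 36 genes of the chromosome had a peak (25%, 12.1 to 42.2), 0 of 7 on distal 1p, 3 of 15 on proximal 1p and 6 of 14 on 1q (42.9%, 17.7 to 71.1). Over all protein-coding genes the shares were 20.5% on the chromosome and 25.9% on 1q. NHLH2 and NHLH1, paired neuronal basic helix-loop-helix genes on 1p and 1q, both belonged to them. NHLH2 had 3 peaks, the highest at chr1:115828622-115828993 with 41 reads and 15-fold, 11846 bases from its start site, and others with 16 and 14 reads. NHLH1 had 2 peaks within 3 kb or inside, the higher with 28 reads and 10.9-fold, 153 bases before the start site whose window is printed above. ZBTB18 had 3 peaks, led by one of 33 reads. JUN, of the AP-1 complex, had 1 of 22 reads and 7.41-fold at its start site.

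Neuronal adhesion, guidance and synaptic genes had a peak in 21 of 57 cases (36.8%, 24.4 to 50.7), 0 of 5 on distal 1p, 5 of 19 on proximal 1p and 16 of 33 on 1q (48.5%, 30.8 to 66.5), beside 20.5% of all genes of the chromosome and 25.9% of those of 1q. ADGRL2 led them. PLXNA2, a semaphorin receptor gene, had 3 peaks, the highest with 34 reads and 13.6-fold, 142185 bases from the nearest start. CELSR2, a cadherin of planar polarity, had 29 reads and 9.81-fold 45 bases from its start. RGS7, a regulator of G protein signalling, had 25 reads and 11.5-fold. Gene length was not adjusted for in the shares of any of the lists.

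Cell cycle and DNA replication genes had a peak in 13 of 44 cases (29.5%, 16.8 to 45.2), 1 of 9 on distal 1p, 3 of 18 on proximal 1p and 9 of 17 on 1q (52.9%, 27.8 to 77.0). All protein-coding genes had shares of 20.5% on the chromosome and 4.91%, 22.7% and 25.9% in the 3 regions. On distal 1p the one was AURKAIP1, with 16 reads and 7.21-fold. On proximal 1p they were CDC7, a kinase of replication origins (6.09-fold), CDKN2C and USP1. Of the peaks at CDKN2C, the higher (6.74-fold) lay nearer to the start site of FAF1. The other, 114 bases from a start site of CDKN2C, had 17 reads and 5.97-fold. The study had picked USP1 partly from its NeuroD1 ChIP-seq, so the count of USP1 here is not independent of these data. On 1q KIF14, a mitotic kinesin gene, led with 24 reads and 10.5-fold, 130 bases from its start. NUF2, of the kinetochore, had 26 reads but 5.30-fold, on a background of 4.0, and CKS1B, a CDK subunit gene, had 17 reads and 5.89-fold on a background of 2.0. In each of these last 3 lists, as over all genes, the share was lowest on distal 1p and highest on 1q. With 5 to 9 genes of each on distal 1p, the intervals there are wide.

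The place of the peaks relative to genes differed less between regions than their number. Within 1 kb of a start site lay 13 of 27 peaks of distal 1p (48.1%, 28.7 to 68.1), 40.4% of those of proximal 1p and 43.8% of those of 1q, beside 41.8% on the other chromosomes with start sites. Farther than 3 kb from any protein-coding gene lay 3 peaks of distal 1p (11.1%, 2.35 to 29.2), 27.1% (21.6 to 33.2) on proximal 1p and 25.2% (20.9 to 29.9) on 1q. Median widths were 250 bases on distal 1p (interval of the median 164 to 309), 212 on proximal 1p and 226 on 1q. The median fold enrichment of peaks within 1 kb of a start site was 6.60 over the chromosome, and that of the others 6.77. Neighbouring summits were a median of 497 kb apart on distal 1p, 141 kb on proximal 1p and 109 kb on 1q, and pairs within 3 kb numbered 2, 16 and 35.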

How the data were processed

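Peaks called in the NeuroD1 ChIP library of IMR-32 cells were used, and the input library of the series was not analysed here. The authors aligned reads with BWA 0.7.17 to hg38 and called peaks with MACS2 2.2.7, per the submitters' processing notes, while the peak names in the deposited file name macs3 and a scaling by depth. Which control and which q threshold were used is not given in the sources used here. The highest deposited q-value was 0.0414. The deposited columns are the fold enrichment (a ratio with 1 added to pileup and background), the −log10 p and −log10 q of each summit, a score equal to 10 times −log10 q, and fold enrichment over width, which was not used. Total reads per library are not in the file, so depth is known only as reads at each summit.

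For each peak, the pair of ChIP reads and background that gives the deposited fold enrichment and −log10 p was solved with the Poisson formula of MACS. The weight of a read was estimated from 34 peaks with a single solution. On 976 simulated peaks with known answers, 100% of reads and 100% of backgrounds were given back. The largest difference from a deposited −log10 p was 0.000912. Genes and start sites came from RefSeq (GRCh38.p14), and coordinates are 1-based. Of the 2061 protein-coding genes of chromosome 1, 1747 (84.8%) had a start site in the table, and for the others the nearer gene end was used. Promoter windows of chromosome 8 were not analysed here.

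Rates carry exact Poisson, shares Clopper-Pearson, and ratios of rates exact binomial 95% intervals, and medians the binomial interval over ranked peaks. PCR duplicates are not independent molecules, so intervals cover counting error only. Genes were named by a rule: the gene nearest to the 5 highest peaks of each region and to the highest of each bin, list genes with a peak, USP1, and genes with 3 or more peaks. Further peaks of distal 1p, and 1 near NFIA, were named with their values in view. The members, the lists and the rule were chosen with earlier results of these data known. Intervals came from scipy 1.17.1, tables were handled with pandas 2.3.3 and numpy 2.4.6 under Python 3.11.15, and figures were drawn with matplotlib 3.10.9. The alternatives are given in the closing section.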

Additional observations from a re-analysis of the deposited data

How the results depend on the processing

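No paired analysis was possible because each group has 1 library and the peaks come from the ChIP library alone. Ending distal 1p at 20, 40 or 50 Mb (the last chosen after seeing the data) left the rate on 1q between 5.57 and 7.28 times that on distal 1p, and counting per megabase lowered it to 3.39 and that of proximal 1p to 2.84. The order of 1q and proximal 1p depended on the limit: their ratio of rates fell to 0.911 with 40 Mb and 0.724 with 50 Mb, which leave the sparse bins out of proximal 1p. With 50 Mb the difference in the share of peaks at the lowest background (1q minus proximal 1p) turned from -7.48 to 0.730 percentage points. Giving each ChIP read a weight of 1 raised the ratio of mean backgrounds of 1q and distal 1p to 1.93. Among peaks at the lowest background alone, 8 of them on 1q, the median fold enrichment of 1q exceeded that of proximal 1p by 1.44. The interval of this difference, -0.963 to 5.78, includes equality. The other 66 alternative values stayed within the interval of the reported value or, for counts, within 1.5 times of it. Genes with a peak numbered 329 in the gene body alone and 492 within 10 kb.

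The list has 1 library, and a peak is listed where reads exceed its background, so regions of low and high background are not searched with equal sensitivity. Backgrounds are known at peaks alone.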
